A study of Mus musculus with 4 samples.

Results

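The ErbB receptors, the growth factors that bind them and the receptor inhibitor Errfi1 were followed in basal cells of mouse epidermis that had lost Ezh2. The set held 10 genes chosen by symbol, 3 receptors (Egfr, Erbb2, Erbb3), 6 ligands (Areg, Ereg, Hbegf, Tgfa, Btc, Epgn) and Errfi1, and every probe set annotated to a single one of these symbols was taken. This gave 21 probe sets for 9 of the 10 genes, among 45037 non-control probe sets on the array. No probe set was annotated to Areg (amphiregulin) alone, so it was not analysed here. The basal cells were sorted by flow cytometry from skin at embryonic day 16. Ezh2cKO embryos, a conditional knockout of Ezh2, were compared with WT embryos, both of a mixed C57 and CD1 background, with 2 samples per genotype numbered 1 and 2. Ezh2 is the histone methyltransferase of Polycomb repressive complex 2, which silences genes, and the study asked which genes change when this silencing is lost from epidermal progenitors. The labels do not name the Cre line or say whether the samples came from separate embryos, so a p-value here covers just the variation among these 4 arrays, which may be technical.

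ErbB receptors are tyrosine kinases that pair on binding a ligand and signal through RAS and ERK and through PI3K and AKT. Their ligands are made as membrane-bound precursors that proteases release from the cell surface. In the epidermis this pathway drives proliferation of basal keratinocytes and shapes hair growth, and mice with reduced Egfr or Tgfa function have wavy hair. Errfi1, also called Mig6, is induced by receptor signalling and binds the kinase to switch it off.

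Promoter sequence is shown for an inhibitor, a ligand and a receptor that varied differently across the arrays, Errfi1, Epgn and Egfr. Each sequence is the 250 bases just before an annotated start in RefSeq (GRCm38.p6), 5′ to 3′ on the plus strand, which is the gene's strand in all of them. They lie at chr4:150854820-150855069 for the second annotated start of Errfi1, chr5:91027267-91027516 for Epgn and chr11:16751953-16752202 for Egfr. Capitals mark matches, on either strand, to a cyclic AMP response element (TGACGTCA) or a TATA box (TATAAA).
Errfi1: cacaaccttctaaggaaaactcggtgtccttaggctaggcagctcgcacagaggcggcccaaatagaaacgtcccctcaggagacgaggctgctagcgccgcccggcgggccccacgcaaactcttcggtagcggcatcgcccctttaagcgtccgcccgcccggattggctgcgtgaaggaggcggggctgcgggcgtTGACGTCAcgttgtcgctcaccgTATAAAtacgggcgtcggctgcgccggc
Epgn: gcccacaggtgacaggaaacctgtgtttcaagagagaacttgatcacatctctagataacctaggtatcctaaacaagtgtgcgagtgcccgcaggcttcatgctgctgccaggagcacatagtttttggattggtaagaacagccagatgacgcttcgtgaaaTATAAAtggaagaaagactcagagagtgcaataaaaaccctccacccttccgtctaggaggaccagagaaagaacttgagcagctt
Egfr: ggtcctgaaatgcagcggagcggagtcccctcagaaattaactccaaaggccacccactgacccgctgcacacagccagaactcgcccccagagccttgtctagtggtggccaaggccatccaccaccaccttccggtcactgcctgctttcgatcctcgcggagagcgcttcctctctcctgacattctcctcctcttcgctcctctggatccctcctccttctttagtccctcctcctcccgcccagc
The Errfi1 window shown held both motifs, as did that of Areg, while the window of the first annotated start of Errfi1 held neither. The Epgn window held a TATA box and the Egfr window neither motif. Of 32851 windows of this length over all genes, 1.55% held the cyclic AMP response element and 12.4% the TATA box, and the motifs do not overlap each other. Neither the AP-1 site TGANTCA nor the Egr site GCGNGGGCG was found in any of the 8 windows available for 7 of the genes, and over all windows they were found in 6.75% and 4.7%. The windows also differed in CG dinucleotides, which are dense at many Polycomb targets. The Errfi1 window held 30, Tgfa 19, Erbb2 16, Areg 15, Egfr 11, Epgn 5 and Btc 4, against a median of 6 over all windows, and the first annotated start of Errfi1 held 1. These matches describe the sequence only.

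The arrays gave 1 MAS5 signal per probe set, on a linear scale set by the authors. Differences between genotypes are given as log2(signal + 16), Ezh2cKO minus WT, which understates the change of dim probe sets. Means are ± SD with n = 2, and SE and 95% intervals are from the limma fit over 27022 probe sets with a mean signal of at least 73.2. Ezh2 itself had 661 and 1308 in Ezh2cKO against 3336 and 3603 in WT. Ezh2cKO replicate 1 stood apart from the other arrays in Xist, with a signal of 86.9 against 8669 to 11333. The Y-linked gene Eif2s3y had 861 and 404 in Ezh2cKO against 222 and 535 in WT. Kdm5d had 494 and 231 in Ezh2cKO against 118 and 287 in WT, and Uty 354 and 218 against 134 and 286. These genes mark embryo sex, which the sample titles do not give, and its part in the genotype differences was not tested. The median signal was 87.4 and 148 on Ezh2cKO arrays 1 and 2, against 91.6 and 137 on WT arrays 1 and 2, and for this reason each difference is also given within each number. Basal keratinocyte markers were bright, and all 11 listed ones passed the filter, with 2 higher and 2 lower in Ezh2cKO without overlap. Krt14 had 16592 and 16408 in Ezh2cKO against 15981 and 14501 in WT, and the integrin Itga6 (picked once its values were known) had 6327 and 9411 in Ezh2cKO against 11908 and 10639 in WT. All 9 dermal fibroblast markers with a probe set also passed, with a summed signal of 62987 and 72453 in Ezh2cKO against 63320.5 and 68787 in WT. Suprabasal keratinocyte markers summed to 58395 and 51950 in Ezh2cKO against 53139 and 46198 in WT. Of the 11, 4 (36.4%) were higher and 0 lower in Ezh2cKO without overlap, against 8.52% and 8.39% of all genes. Among them, and named after their values were seen, Flg had 169 and 184 in Ezh2cKO against 23.8 and 29.5 in WT, and Lor had 5629 and 3423 in Ezh2cKO against 1753 and 2498 in WT. Endothelial markers summed to 3786 and 9964 in Ezh2cKO against 7678 and 9314 in WT. The 5 melanocyte markers that passed the filter summed to 1685 and 1590 in Ezh2cKO against 2295 and 1588 in WT. The 3 Schwann cell and nerve markers that passed summed to 2730 and 3580 in Ezh2cKO against 3686 and 3461 in WT. ErbB family transcripts from cells other than keratinocytes therefore cannot be told apart from those of basal cells. In such bulk samples fewer cells of a type and less RNA per cell cannot be told apart either.

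No ErbB family gene passed the test between the genotypes. Of the 21 probe sets, 17 passed the filter, for 8 genes, and 0 of them passed limma at an adjusted p of 0.05 in either direction (lowest adjusted p 0.999979). None of the 27022 probe sets passed (0% higher, 0% lower). Ezh2 itself, with a log2 difference of -1.88, did not pass either (limma's adjusted p 0.999979). Failing this test therefore does not show that a gene was unchanged. At an unadjusted limma p under 0.05 the count was 0 of 17, against 110 of all probe sets (0.407%). The p-values of this fit thus ran high in general, and 0 of 17 does not set these genes apart. The log2 differences of the 17 ran between -0.20 and 0.32. Taking the brightest tested probe set of each gene, 0 of 8 genes had both Ezh2cKO signals above both WT signals, where 8.52% of 12703 genes did, and 0 had both below, where 8.39% did. Within both replicate numbers 4 of the 8 (Hbegf, Tgfa, Epgn and Errfi1) were higher in Ezh2cKO and 1 (Erbb3) was lower, against 25.2% and 25.6% of all genes. With each array scaled to a common median 2 genes, Hbegf and Epgn, were higher without overlap, and after quantile normalization 1, Erbb3, was lower without overlap. The 8 genes' median log2 difference was 0.05, against -0.0035 over all genes. With 2 samples against 2, an exact two-sided permutation test cannot give a p below 0.333.

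**Figure D1:**
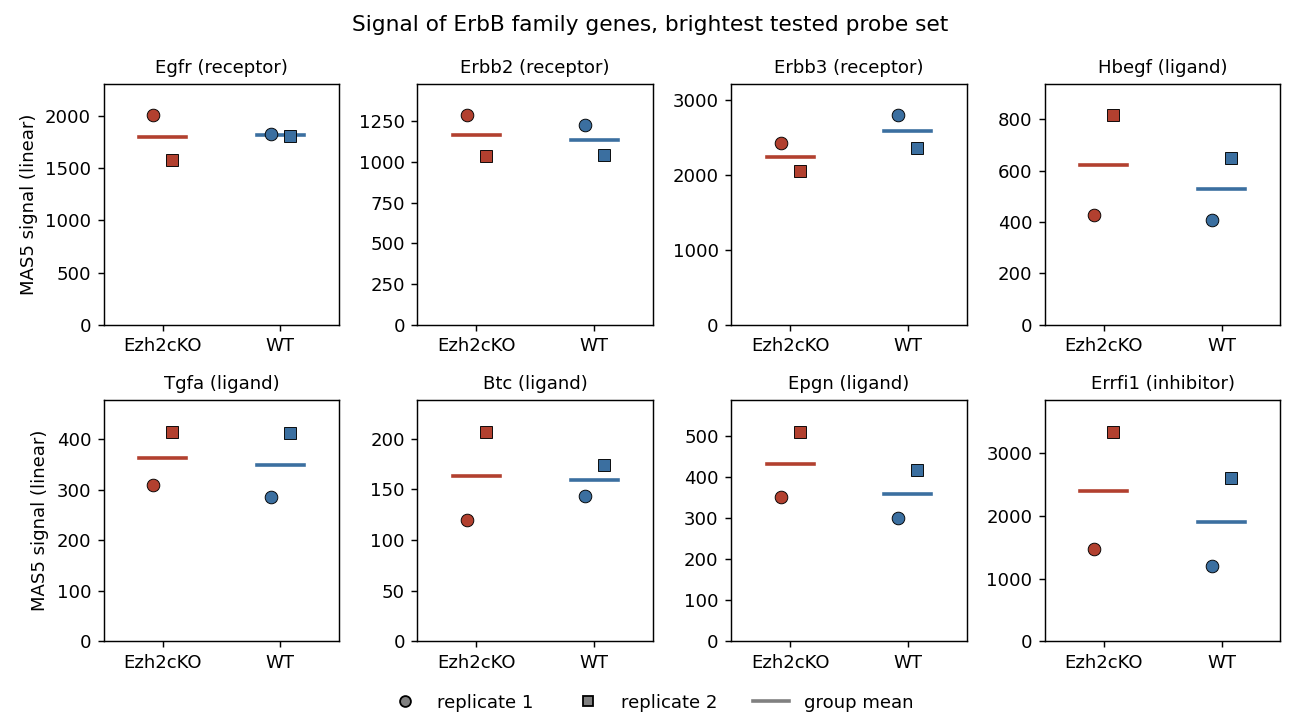
MAS5 signal (linear, axis from 0) of the brightest tested probe set of 8 genes on each array, Ezh2cKO left and WT right, circles for replicate 1, squares for replicate 2 and bars for the group mean. In every panel the genotypes overlap, and for Errfi1 the squares (3348 and 2606) lie far above the circles (1466 and 1199).

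Among the receptors, Egfr is the one that the EGF-type ligands bind directly. Its brightest probe set, 1435888_at, had 2010.1 and 1582 in Ezh2cKO against 1826 and 1809 in WT. One Ezh2cKO array lay above and the other below both WT arrays. The means were 1796 ± 303 in Ezh2cKO and 1817 ± 12.4 in WT, a log2 difference of -0.03 (SE 0.19), with 0.14 within number 1 and -0.19 within number 2. The 95% interval of this probe set covers 0.703-fold to 1.37-fold, so a change of 2-fold lies outside it. Those of the dimmer Egfr probe sets 1424932_at and 1460420_a_at end at 1.51-fold and 1.90-fold. The intervals of 1451530_at, 1454313_at and 1432647_at reach 2.30-fold, 2.29-fold and 2.35-fold, so they include it.

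The array carried 7 Egfr probe sets, and the 6 that passed the filter gave log2 differences of -0.03 to 0.27, 5 of them positive. Only 2 of the 6 had the same sign within both numbers. The probe set 1424932_at had 855 and 771 in Ezh2cKO against 782 and 733 in WT, with log2 0.13 and 0.07 within the numbers. The probe set 1460420_a_at, of the type designed to detect several transcripts of one gene, had 564 and 895 in Ezh2cKO against 538 and 837 in WT. These values show a larger gap between the arrays of a genotype than between genotypes, in a probe set whose gene's brightest probe set did not share that gap. The largest difference among these 6, in 1451530_at, came from 156 and 271 in Ezh2cKO against 159 and 180 in WT (log2 0.27, SE 0.37). It rested on number 2, where the difference was 0.55 against -0.02 within number 1. The probe sets 1454313_at (89.4 and 147 in Ezh2cKO against 107 and 107 in WT) and 1432647_at (84.2 and 119.9 in Ezh2cKO against 86.6 and 101 in WT) likewise were lower in Ezh2cKO on the arrays numbered 1 and higher on those numbered 2. The probe set 1457563_at, below the filter, had 12.7 and 25.9 in Ezh2cKO against 17.97 and 41.5 in WT. Its log2 difference was -0.35, with -0.24 within number 1 and -0.46 within number 2, and it was not tested.

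Erbb2 encodes the partner receptor that has no known ligand of its own and pairs with the other family members. It had 1287 and 1037 in Ezh2cKO against 1228 and 1044 in WT. The arrays of the same number gave nearly the same signal in both genotypes. The means were 1162 ± 177 in Ezh2cKO and 1136 ± 130.4 in WT (log2 0.03, SE 0.21), and the 95% interval covers 0.706-fold to 1.48-fold.

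Erbb3, a receptor for neuregulins whose own kinase is weak, was the only one of the 8 genes lower in Ezh2cKO within both numbers. The probe set 1434606_at had 2427 and 2046.5 in Ezh2cKO against 2793 and 2360 in WT. The differences within the numbers were alike, 0.869 times and 0.867 times the WT signal, but Ezh2cKO replicate 1 lay above WT replicate 2, so the genotypes overlapped. The means were 2237 ± 269 in Ezh2cKO and 2576 ± 307 in WT (log2 -0.20, SE 0.19, 95% interval -0.67 to 0.26), with limma's adjusted p of 0.999979. Within both numbers 25.6% of all genes were lower in Ezh2cKO. The part of cells other than keratinocytes, such as melanocytes and Schwann cells, in the Erbb3 difference was not tested. The other Erbb3 probe set, 1452482_at, lay below the filter at 21.9 and 15.1 in Ezh2cKO against 12.4 and 13.2 in WT and was not tested.

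**Figure D2:**
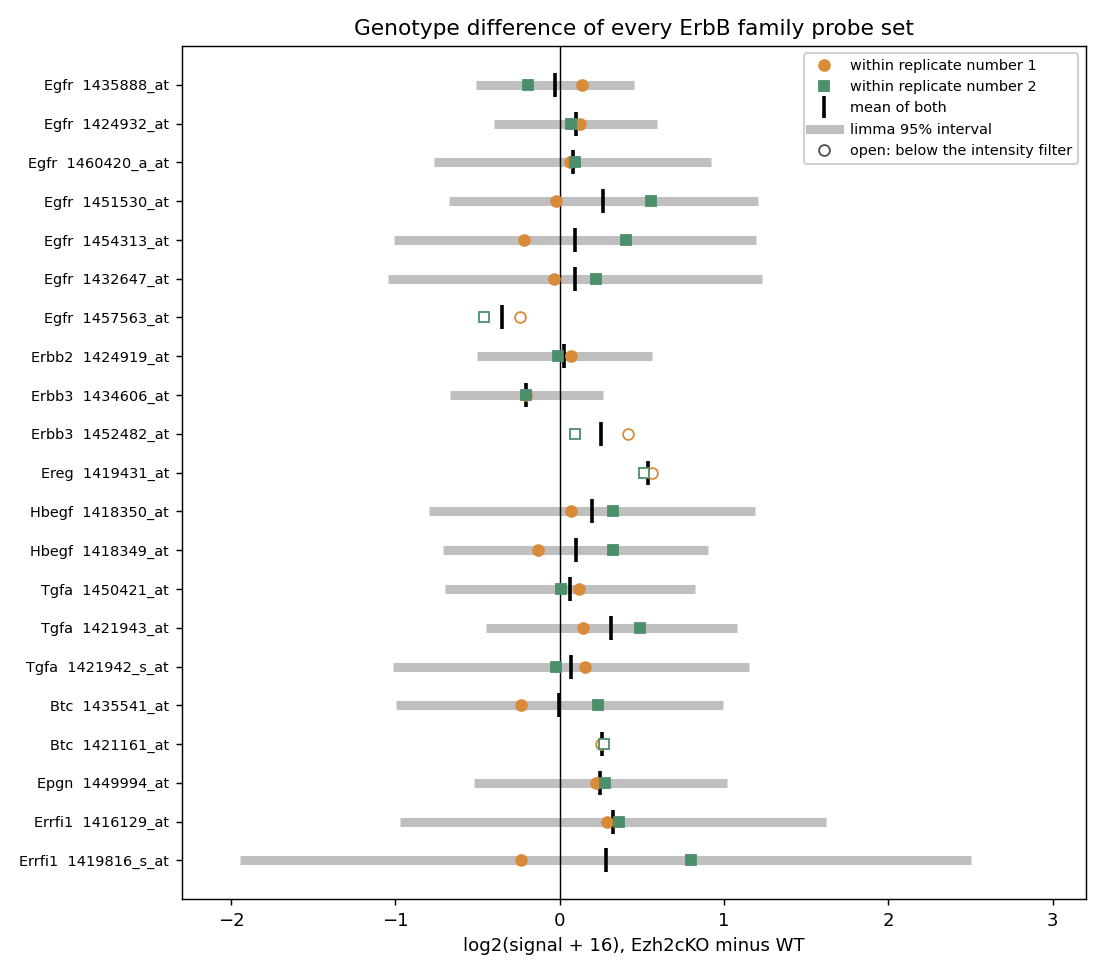
Log2(signal + 16), Ezh2cKO minus WT, of all 21 probe sets, with circles within number 1, squares within number 2, black ticks for the mean of both and grey bars for limma's 95% interval, and open symbols below the intensity filter. Every grey bar spans 0, and the bars of Errfi1 1419816_s_at (-1.94 to 2.51) are the widest.

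The ligands are small growth factors that share the EGF fold. Hbegf, the heparin-binding ligand that is induced in wounded epidermis, had 429 and 817 in Ezh2cKO against 408 and 648 in WT by the probe set 1418350_at. The arrays numbered 2 were higher in both genotypes and the genotypes overlapped. The means were 623 ± 274 in Ezh2cKO and 528 ± 170.1 in WT (log2 0.20, SE 0.39), with 0.07 and 0.33 within numbers 1 and 2. Its other probe set, 1418349_at, had 215 and 339 in Ezh2cKO against 236 and 267 in WT, with -0.13 and 0.33 within the numbers. Both probe sets thus gave the same difference within number 2 and opposite signs within number 1.

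Tgfa, a ligand that keratinocytes make for themselves, had 309 and 414 in Ezh2cKO against 284 and 411 in WT by the probe set 1450421_at (log2 0.06, SE 0.30). A second probe set, 1421943_at, had 208 and 224 in Ezh2cKO against 187 and 155 in WT. This was the only one of the 17 tested probe sets in which both Ezh2cKO signals lay above both WT signals, and in none did both lie below, where 7.22% and 7.21% of all tested probe sets did. Its means were 216 ± 11.5 in Ezh2cKO and 171 ± 22.7 in WT (log2 0.32, SE 0.30, 95% interval -0.45 to 1.08), with limma's adjusted p of 0.999979. The third, 1421942_s_at, of the type that can detect transcripts of more than one gene, had 98.9 and 121 in Ezh2cKO against 87.1 and 123 in WT. The separation was therefore seen in 1 of 3 Tgfa probe sets.

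Epgn encodes epigen, a ligand of Egfr with low affinity. It had 351 and 509.6 in Ezh2cKO against 299.7 and 417 in WT, a ratio of 1.17 on the arrays numbered 1 and 1.22 on those numbered 2. Ezh2cKO replicate 1 lay below WT replicate 2, so the groups overlapped. The means were 431 ± 112 in Ezh2cKO and 359 ± 83.2 in WT (log2 0.25, SE 0.31, 95% interval -0.52 to 1.02), with limma's adjusted p of 0.999979.

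Btc encodes betacellulin, which binds Egfr and Erbb4. The tested probe set, 1435541_at, had 119.7 and 207 in Ezh2cKO against 144 and 174 in WT. The Ezh2cKO signals lay on either side of both WT signals, and the log2 difference was -0.001 (SE 0.40). A dim probe set, 1421161_at, had 17.3 and 17.3 in Ezh2cKO against 11.9 and 11.7 in WT. Both Ezh2cKO signals lay above both WT signals there, at a level under the filter where no background was measured.

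Ereg, which encodes epiregulin, a ligand of Egfr and Erbb4, had only a probe set below the filter, with 19.0 and 36.0 in Ezh2cKO against 7.73 and 20.4 in WT. The log2 differences within the numbers were 0.56 and 0.51, the groups overlapped, and it was not tested. Among family genes outside the 10, Erbb4 had signals of 2.27 and 3.60 in Ezh2cKO against 1.03 and 1.00 in WT, far under the filter. Nrg2 and Nrg4, which encode neuregulins and are 2 of the 3 other ligands that passed, had log2 differences of -0.13 and -0.01.

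The genes Epgn, Ereg, Areg and Btc follow each other on mouse chromosome 5 with no other protein-coding gene between them in RefSeq. On one side lie Mthfd2l, a folate enzyme, and then the neutrophil chemokine Cxcl2, and on the other Parm1. Cxcl2 had 74.2 and 1641 in Ezh2cKO against 47.8 and 360 in WT, so that it differed far more between the arrays of a genotype than any of its ligand neighbours. Mthfd2l had 509.9 and 412 in Ezh2cKO against 459 and 440.0 in WT, and Parm1 had 1065 and 1182 in Ezh2cKO against 1131 and 1261 in WT. The groups overlapped in each of these neighbours, in Epgn, in Ereg and in the tested probe set of Btc, but not in the dim Btc probe set.

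Errfi1, the feedback inhibitor, showed the largest log2 difference of the 17 tested probe sets. The probe set 1416129_at had 1466 and 3348 in Ezh2cKO against 1199 and 2606 in WT. Ezh2cKO exceeded WT by 1.22 times on the arrays numbered 1 and by 1.29 times on those numbered 2, while the arrays numbered 2 exceeded those numbered 1 by 2.28 times in Ezh2cKO and 2.17 times in WT. The means were 2407 ± 1331 in Ezh2cKO and 1902 ± 995 in WT (log2 0.32, SE 0.52, 95% interval -0.97 to 1.62), with limma's adjusted p of 0.999979. The interval covers 0.51-fold to 3.07-fold. The other probe set, 1419816_s_at, is of the type that can detect transcripts of more than 1 gene. It had 306 and 1768 in Ezh2cKO against 364 and 1011.0 in WT, with -0.24 within number 1 and 0.80 within number 2. The 2 probe sets agree in the gap between array numbers and not in the sign of the genotype difference within number 1.

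Several of the 8 genes also differed between the arrays of a genotype. By their brightest probe sets, 5 of the 8 genes (Hbegf, Tgfa, Btc, Epgn and Errfi1) were higher on array 2 than on array 1 in both genotypes in the authors' scaling. All 3 receptors were lower. The shares of all genes with these directions were not computed, so the counts do not set the family apart. For Egfr the direction depended on the probe set. Its probe set 1424932_at was also lower on array 2 in both genotypes, but 1460420_a_at, 1451530_at, 1454313_at and 1432647_at were higher. Among the brightest probe sets, quantile normalization turned the sign for Btc (-0.20) and Egfr (0.06) in WT. Scaling to a common median, which moved the median difference over all tested probe sets to -0.57 in Ezh2cKO and -0.47 in WT, turned it for Tgfa and Epgn in both genotypes and for Btc in WT, and left Errfi1 at 0.43 and 0.53. In the authors' scaling the log2 difference of array 2 from array 1 was 1.18 in Ezh2cKO and 1.11 in WT for Errfi1. It was 0.90 in Ezh2cKO and 0.65 in WT for Hbegf, and 0.52 in Ezh2cKO and 0.46 in WT for Epgn. Over all 7430 tested probe sets with a mean signal of 1000 or more, the median of this difference was -0.16 in Ezh2cKO and -0.12 in WT, and 95% of them lay below 0.69 and 0.47. Errfi1 therefore lay in the upper 5% of its signal range in both genotypes. The receptors, at -0.34, -0.31 and -0.24 in Ezh2cKO and -0.01, -0.23 and -0.24 in WT for Egfr, Erbb2 and Erbb3, lay within the range between the 5th and the 95th percentile. Between signals of 200 and 1000 the medians were 0.11 in Ezh2cKO and 0.07 in WT, with 95% of probe sets below 1.44 and 1.31, so that Hbegf, Tgfa and Epgn lay within the general range. Under 200 the medians were 0.64 in Ezh2cKO and 0.44 in WT, so that Btc at 0.72 and 0.25 lay near the arrays' general shift. The labels do not say what the array numbers stand for, and their part in the genotype differences was not tested.

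**Figure D3:**
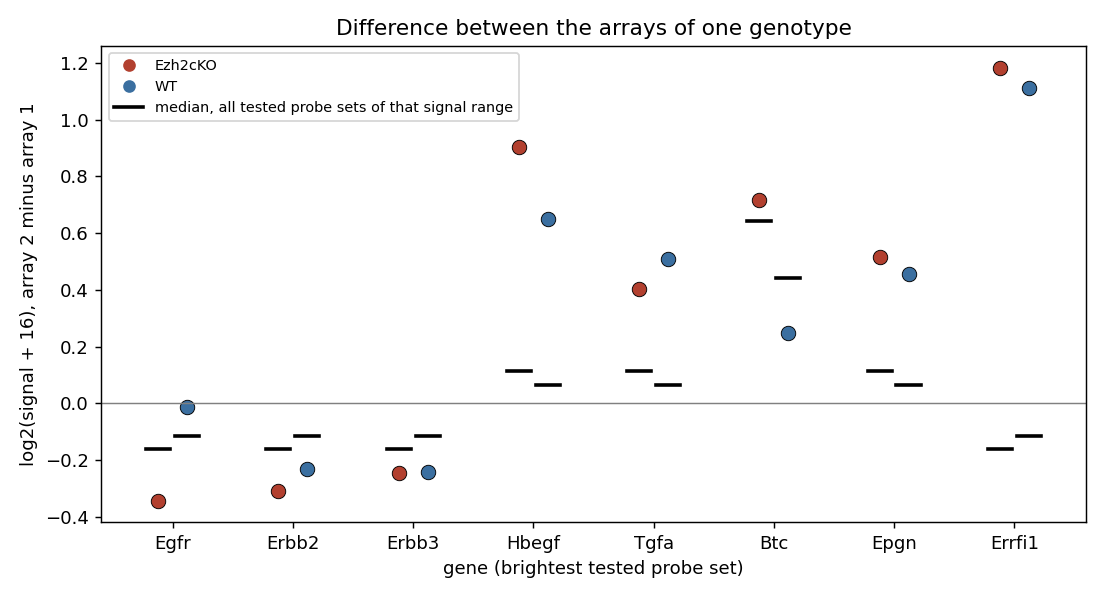
Log2(signal + 16) of array 2 minus array 1, for the brightest tested probe set of each gene, in Ezh2cKO (left point) and WT (right point), with bars at the median of all tested probe sets of the same signal range. Errfi1 (1.18 and 1.11) lies above the 95th percentile of its signal range (0.69 and 0.47), while Hbegf (0.90 and 0.65) lies above its bars but under the 95th percentile of its range (1.44 and 1.31).

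Genes that act with the receptors were counted from fixed lists, and 0 genes of any list passed limma's adjusted threshold in either direction. Of 11 genes of ligand release with a probe set, 10 passed the filter, with a median log2 difference of -0.01. The genotypes did not overlap in 3 of the 10, of which 2 were higher and 1 lower in Ezh2cKO. Over all genes 8.52% were higher and 8.39% lower without overlap. Adam10, a protease that releases betacellulin and EGF, was the lower one, with 3027 and 4939 in Ezh2cKO against 5407 and 5546 in WT (log2 -0.50, -0.83 within number 1 and -0.17 within number 2). Rhbdf1, a carrier of the protease Adam17, had 4188 and 3476 in Ezh2cKO against 3369 and 3272 in WT. Adam17 itself, the main protease for Tgfa and Hbegf, named for its role after its values were seen, had 872 and 889 in Ezh2cKO against 843 and 907 in WT.

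Downstream of the receptors, the lists of adaptors, kinases and inhibitors had medians near 0. Of 28 adaptors and proximal enzymes with a probe set, 26 passed the filter, and 4 of these were higher and 0 lower in Ezh2cKO without overlap (median -0.03). Of 9 analysed genes of the RAS and ERK cascade, 2 were higher and 0 lower (median 0.01). Nras had 3876 and 3768 in Ezh2cKO against 3892 and 3684 in WT. Of 10 genes around PI3K and AKT, 2 were higher and 0 lower (median -0.01), and Akt1 had 4277 and 4244 in Ezh2cKO against 3777 and 4093 in WT. Over all genes the shares without overlap were 8.52% higher and 8.39% lower. Of 20 other inhibitors and phosphatases that act on the receptors, 1 was higher and 1 lower (median 0.01), and Cav1, the caveolae protein, had 11028 and 11967 in Ezh2cKO against 11458 and 11819 in WT.

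The list of 29 genes that ERK signalling is known to induce early had a median log2 difference of 0.53, with 0.54 within number 1 and 0.37 within number 2. Within both numbers 20 of the 29 were higher in Ezh2cKO and 2 lower, where 25.2% and 25.6% of all genes were, and the genotypes did not overlap in 4 of them. Of these 3 (10.3%) were higher and 1 (3.45%) lower in Ezh2cKO, where 8.52% and 8.39% of all genes were. Egr1, a transcription factor induced by ERK, had 11873 and 15329 in Ezh2cKO against 6974 and 11888 in WT. Fos, part of AP-1, had 14329 and 13332 in Ezh2cKO against 9850 and 12640 in WT. The list was also higher on array 2 than on array 1, by a median of 1.21 in Ezh2cKO and 1.04 in WT. Of its members, 8 are also among the 12 genes of the stress and dissociation list, whose summed signal was 66191 and 100005 in Ezh2cKO against 45683 and 73046 in WT. The part of tissue dissociation in the values of Errfi1, Hbegf and these genes was not tested.

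**Figure D4:**
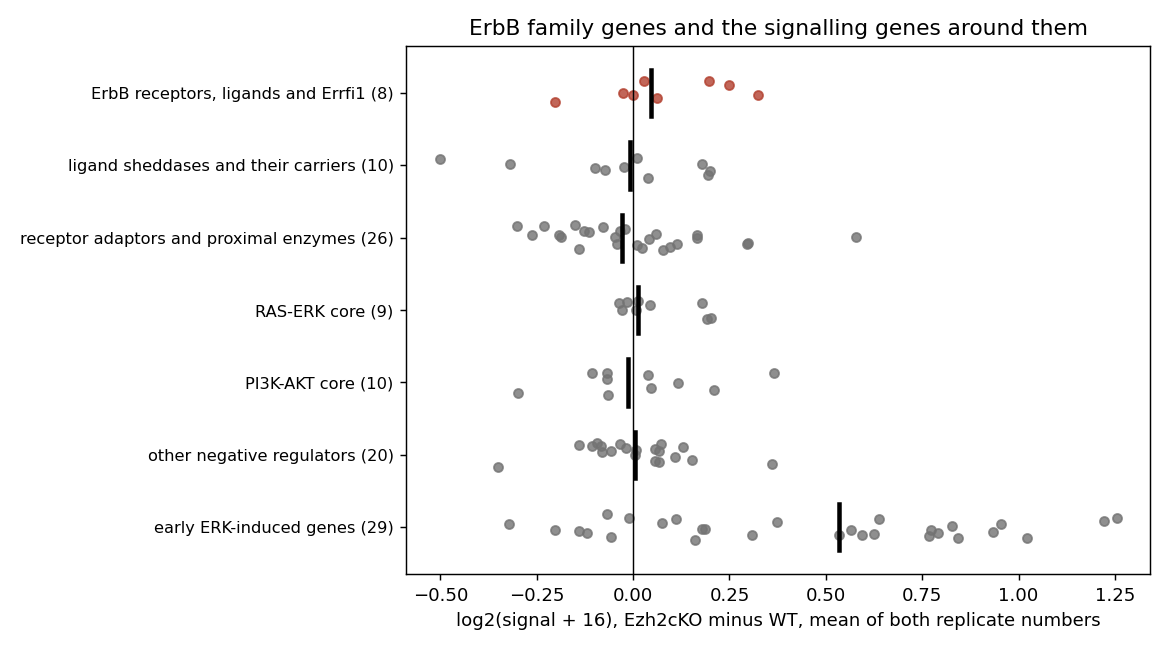
Log2(signal + 16), Ezh2cKO minus WT, of each gene that passed the filter (points, brightest tested probe set) and the median (bars) for the 8 tested ErbB family genes and 6 lists of genes around them. The family's median (0.05) and those of 5 lists lie near 0, and that of the early ERK-induced genes lies at 0.53.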

How the data were processed

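RNA of 2 Ezh2cKO and 2 WT samples of sorted basal cells was hybridised to Affymetrix mouse arrays. The authors deposited a signal intensity for each probe set of each array, made with MAS5 (no version named), per the submitters' processing notes. The authors' scaling was kept, and detection calls were not used here. After 64 control probe sets were left out, probe sets with a mean in the upper 60% were kept (27022 of 45037). Gene names came from the array's platform annotation, for the 34945 probe sets with 1 symbol (932 had several and 9160 were not listed), and 34741 were updated through RefSeq (GRCm38.p6). Values were transformed as log2(signal + 16) and fitted with limma 3.58.1 in R 4.3.3 without a block, with variances moderated by eBayes along an intensity trend and Benjamini-Hochberg adjustment over all kept probe sets. The brightest kept probe set stood for a gene. The fit was tested on simulated data, drawn separately for each array with a spread from which differences between replicate numbers had been removed. Those data lacked the variation shared by same-numbered arrays, so they do not show what the fit can find here. From each pathway list the 2 genes with the highest mean signal could be named. The genes and lists were chosen with earlier results of these data known. The number of arrays limits the precision. Alternatives were other pseudocounts, filters and scalings, the replicate number as a block, no trend, a looser threshold, averaging all probe sets per gene, and dropping each array.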

Additional observations from a re-analysis of the deposited data

How the results depend on the processing

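Of 103 recomputed log2 differences of the 8 genes, 35 equal the reported value by construction (such as other filters or the replicate block). Of the other 68, 53 kept their direction and 15 changed sign. Of the 103, 0 passed an adjusted p of 0.05 in limma (lowest 0.914898, Errfi1 with the replicate block). Outside the fits with an array left out, the sign turned for Egfr with the mean of its probe sets (0.10) and for Btc with a pseudocount of 64 (0.0057) and quantile normalization (2.3e-05). With 1 array left out, the log2 difference ran between -0.20 and 0.14 for Egfr, -0.12 and 0.18 for Erbb2, -0.32 and -0.08 for Erbb3, -0.25 and 0.65 for Hbegf, -0.19 and 0.32 for Tgfa, -0.36 and 0.36 for Btc, -0.0094 and 0.51 for Epgn and -0.27 and 0.91 for Errfi1. Scaling to a common median left 2 of the 8 genes (Hbegf and Epgn) higher in Ezh2cKO without overlap, and quantile normalization left 1 (Erbb3) lower. With 1 array left out these counts were 5 higher and 3 lower without Ezh2cKO replicate 1, 2 and 1 without Ezh2cKO replicate 2, 4 and 1 without WT replicate 2, and 0 and 0 without WT replicate 1. Over all genes 29.6% were higher and 35.8% lower without Ezh2cKO replicate 1, 36.7% and 30.9% without Ezh2cKO replicate 2, 25.3% and 25.4% without WT replicate 2, and 24.9% and 25.2% without WT replicate 1. Over all probe sets, limma called 5 higher and 1 lower with the replicate block, 0 and 0 without Ezh2cKO replicate 1, 8 and 19 without Ezh2cKO replicate 2, 1 and 1 without WT replicate 1, and 42 and 10 without WT replicate 2, where the fit gives the lone array of a genotype the spread of the other genotype. The scalings of the differences between array numbers were chosen after seeing the data. Same-numbered arrays deviated together (r = 0.77 over 27022 probe sets), but the labels state no pairing. The cause of these changes was not tested. Dim probe sets, Ereg among them, had no measured background.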
